A study of Mus musculus with 9 samples.

Results

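The mTORC1 pathway was read through 10 genes in RNA-seq counts of fibroblasts: the inhibitors Ddit4l, Ddit4, Sesn1 and Sesn3, the tuberous sclerosis genes Tsc1 and Tsc2, the GTPase gene Rheb, the kinase gene Mtor, the scaffold gene Rptor and the effector gene Rps6kb1. They are 10 of the 23337 genes in the count table, all 10 were listed, and all 10 had counts in every library. The list was chosen by the measured counts in these groups, above all the low counts of Ddit4l in LIP, so that their own values are a description. No p-value is printed for a member, and the count of members that a fit over all genes called is given beside the share of all genes it called. The cells were immortalised mouse embryonic fibroblasts (MEFs) of the strain background C57BL/6 x 129 that lack functional Cebpb. They carried the empty vector (EV), rat C/EBPβ-LAP or rat C/EBPβ-LIP after stable transfection and Zeocin selection, and each group had 3 of the 9 libraries. LAP denotes the long, activating and LIP the short, truncated isoform of the transcription factor C/EBPβ, and LIP lacks the transactivation domains. The Cebpb knockout was shared by all groups, the EV controls included. LAP against EV and LIP against EV therefore compare the same knockout line with and without an isoform added back. LIP against LAP compares the lines that carry these isoforms with each other, without the EV controls. The labels do not say whether the libraries of a group came from separate cultures or clones, and p-values therefore measure only the spread between these libraries, which may be technical.

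mTORC1 is a protein kinase complex built from mTOR and its scaffold raptor, the product of Rptor, and it drives protein synthesis and growth when nutrients and growth factors are present. Rheb bound to GTP activates it, and the complex of TSC1 and TSC2 switches Rheb off. DDIT4 (also REDD1) and its paralog DDIT4L (also REDD2) are stress-induced inhibitors that act through this TSC complex, whereas sestrins hold back the branch that senses amino acids. The counts measure RNA, not protein, phosphorylation or kinase activity.

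Gene counts summed to 24839139 in the shallowest and 33522082 in the deepest library, so that 3 counts, taken as the floor of detection, corresponded to 0.0895 to 0.121 CPM, the usual scale of counts relative to library size. CPM below were scaled by the TMM method over all 9 libraries, and such floors cover counting error only. Across expressed genes, any 2 libraries had a Pearson's r of log2 CPM between 0.946 and 0.994, over genes that are not independent replicates. The fibroblast label was read against 9 markers, and all 9 had a mean above 1 CPM in EV and LAP and 7 in LIP, where Pdgfra and Pdgfrb fell short of it. The summed fibroblast markers lay between 33338 and 38002 CPM in EV, between 24580 and 41315 CPM in LAP and between 14527 and 28775 CPM in LIP, so the LIP libraries were below all EV libraries. Taken singly, Col1a1, Col1a2, Pdgfra and Pdgfrb were below all EV libraries in LIP, while Col3a1, Thy1, Vim, Fn1 and Dcn overlapped. Summed markers of skeletal muscle, a tissue in which Ddit4l is known to be abundant, did not exceed 2.22 CPM in any library, and those of macrophages and of endothelium did not exceed 8.91 CPM and 3.64 CPM. Epithelial markers summed to between 485 and 1004 CPM, and these sums overlapped between all groups. Within them, Krt8 and Krt18 were above and Cdh1 below all EV libraries in LIP, while Epcam, Krt5 and Krt14 overlapped. Counts on the mouse Cebpb gene lay between 25.2 and 33.3 CPM in all groups, and they do not check the labels, as it was not tested how reads of the rat transgenes were counted. The part of the lower fibroblast markers in the results below was not tested.

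The promoters of the paralogs Ddit4l and Ddit4 are shown because these are the genes on which the contrast below turns. The 250 bases before the start site were taken from RefSeq on GRCm38.p6, for Ddit4l at chr3:137623422-137623671 on the plus strand and for Ddit4 at chr10:59951771-59952020 on the minus strand. Capitals mark a match to the motifs searched, and the Ddit4l stretch has none.

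Ddit4l: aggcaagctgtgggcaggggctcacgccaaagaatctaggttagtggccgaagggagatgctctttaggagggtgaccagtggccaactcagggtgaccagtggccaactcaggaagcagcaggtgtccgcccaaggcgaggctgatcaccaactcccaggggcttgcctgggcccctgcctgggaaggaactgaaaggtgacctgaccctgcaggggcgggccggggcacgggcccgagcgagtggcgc

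Ddit4: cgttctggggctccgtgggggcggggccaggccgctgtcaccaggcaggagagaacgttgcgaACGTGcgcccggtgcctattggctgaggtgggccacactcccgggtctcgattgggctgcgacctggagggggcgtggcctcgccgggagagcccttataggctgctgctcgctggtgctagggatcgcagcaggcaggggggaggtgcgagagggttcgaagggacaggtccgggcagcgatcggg

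The motifs, searched on both strands from 250 bases before to 50 bases after the start, were TTGCGCAA and the looser TTNNGNAA for C/EBP factors, TGATGNAA for ATF4 with C/EBP, ACGTG for hypoxia-inducible factors and CACGTG, the E-box, which contains ACGTG. All 10 members were found among the 32851 promoter entries, with 11 entries because Sesn1 has 2 start sites. TTGCGCAA was in 0 members and in 0.183% of all promoters, and TGATGNAA was in 0 members and in 3.97% of all promoters. TTNNGNAA was in 3 members, Sesn1, Tsc2 and Rps6kb1, and in 40.7% of all promoters. ACGTG was in 3 members, Ddit4, Rheb and Rptor, and in 19.6% of all promoters. CACGTG was in Rheb alone among the members and in 7.15% of all promoters. Such a match is a description of these letters and not a binding site. The matches of the 3 further members whose CPM in LIP stood apart from those in EV are shown with 8 bases on either side, for Sesn1 216 bases before its second start (chr10:41887215-41887238, plus strand), for Tsc2 77 bases before the start of its promoter entry (chr17:24632689-24632712, minus strand) and for Rheb 96 bases before its start (chr5:24842444-24842465, minus strand). That start of Tsc2 lies inside the gene bounds given below.

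Sesn1: cgagcctgTTCCCAAActgagtgt

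Tsc2: cccaccacTTGCTCAAcgcgcacg

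Rheb: cgcgcggtCACGTGggtgtgtt

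Ddit4l is encoded on chromosome 3 (GRCm38.p6) from 137623672 to 137628332 on the plus strand and has 3 exons. It had 1007, 881 and 557 counts in EV replicates 1 to 3. LAP replicates 1 to 3 had 517, 557 and 33 counts. LIP replicates 1 to 3 had 60, 93 and 17 counts, all well over the floor of 3. Every LIP library was below every EV library, whereas LAP was split, with replicate 3 inside the range of LIP. On the CPM scale, Ddit4l had 26.7 ± 9.03 CPM in EV, 12.4 ± 9.89 CPM in LAP and 2.02 ± 1.30 CPM in LIP (SD, n = 3 each). The fitted log2 fold change of LIP against EV was -3.73 (standard error, SE, 0.476), a level 13.3-fold lower. In RNA from whole cultures, fewer cells with Ddit4l and less Ddit4l RNA per cell cannot be told apart. A larger fall was seen in 2 of the 10253 genes whose mean reached 50 counts in these libraries. This rank only describes a gene that was listed for its low counts in LIP, and genes with fewer counts were not ranked. Replicate 3 was the lowest library within each group, and LIP was 12.8-fold, 10.7-fold and 29.7-fold below the EV library of the same number. Without LIP replicate 3 the log2 fold change was -3.26, and the lowest value with any 1 library left out was -4.19.

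In LAP against EV, which used the same EV controls, the log2 fold change of Ddit4l was -1.12 (SE 0.574). That value rested in large part on LAP replicate 3, since LAP replicates 1 and 2 were 1.97-fold and 1.62-fold below the EV libraries of their number and replicate 3 was 13.4-fold below. Without LAP replicate 3 the log2 fold change was -0.59 (SE 0.244), and with the replicate number as a block it was -1.56 (SE 0.331). In LIP against LAP it was -2.59 (SE 0.653), a level 6.03-fold lower in LIP, and -2.35 (SE 0.271) with the block. The LIP library was below the LAP library of the same number in all 3 pairs, by 6.51-fold, 6.57-fold and 2.22-fold.

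Ddit4, on chromosome 10 from 59949675 to 59951770 on the minus strand with 3 exons, encodes the better known paralog. It had 31.6, 36.6 and 37.1 CPM in EV. LAP had 33.0, 40.3 and 29.9 CPM, and LIP had 33.8, 29.3 and 41.1 CPM. All 3 groups overlapped, with means of 35.1 ± 3.06 CPM in EV, 34.4 ± 5.35 CPM in LAP and 34.7 ± 5.94 CPM in LIP (SD, n = 3 each). For Ddit4 the log2 fold change was -0.01 (SE 0.173) in LIP against EV, -0.04 (SE 0.162) in LAP against EV and 0.04 (SE 0.221) in LIP against LAP. The paralogs share no stretch of 50 bases, the read length, between their annotated transcripts, and their longest shared run is 13 bases, so no read of that length matches both in full.

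Put as a share of the counts of both paralogs, Ddit4l made up 49.8% (exact binomial 95% interval 47.6 to 52.0), 47.0% (44.8 to 49.3) and 30.5% (28.4 to 32.7) in EV replicates 1 to 3. In LAP the shares were 32.6% (30.3 to 35.0), 33.2% (30.9 to 35.5) and 3.93% (2.72 to 5.47). In LIP they were 6.76% (5.20 to 8.61), 9.41% (7.66 to 11.4) and 1.32% (0.770 to 2.10). The pair was thus near parity in 2 EV libraries and almost wholly Ddit4 in the LIP libraries and in LAP replicate 3. These shares are not corrected for transcript length, and their intervals cover counting error only.

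**Figure D1:**
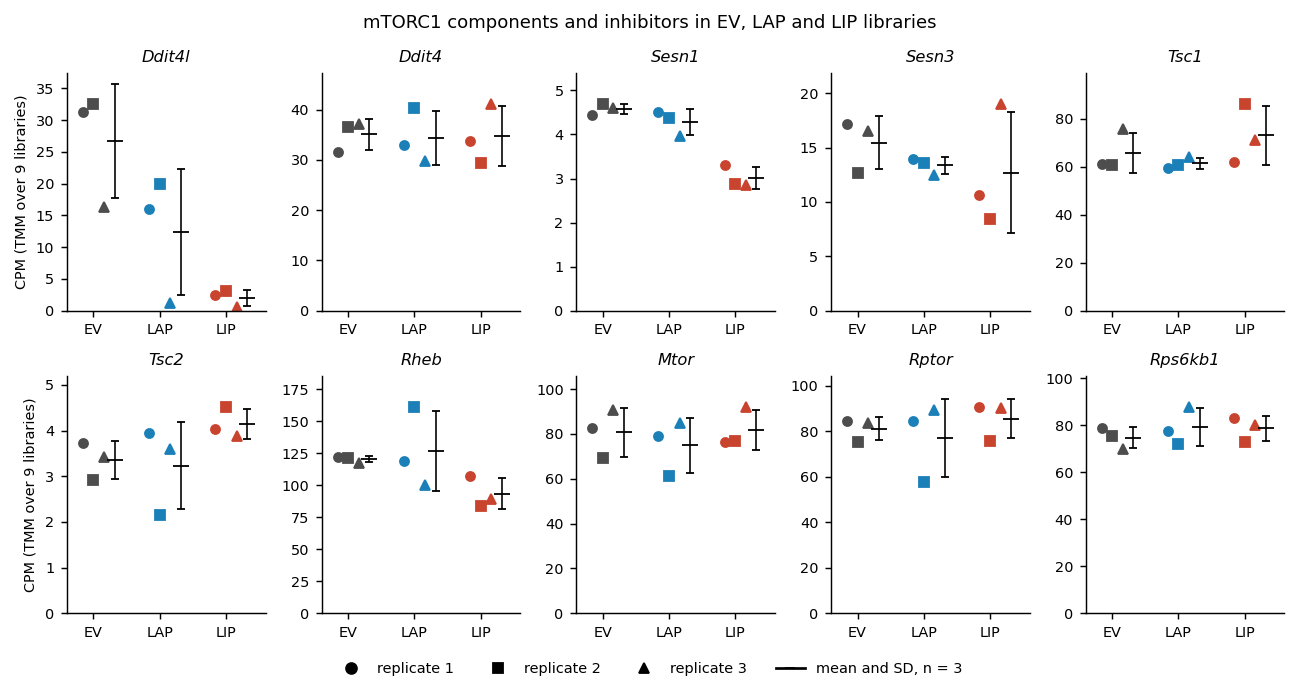
CPM of the 10 members in each of the 9 libraries, 1 panel per gene with its own axis from 0, with a mark for each library (circle, square and triangle for replicates 1, 2 and 3) and, beside them, the group mean with its SD (EV, LAP and LIP, n = 3 each). Ddit4l drops from 16.3 to 32.5 CPM in EV to 0.549 to 3.05 CPM in LIP, with LAP replicate 3 at 1.22 CPM, while Ddit4 stays between 29.3 and 41.1 CPM.

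Sestrins are stress-induced proteins that bind GATOR2, an activator of the amino acid branch of mTORC1. Sesn1 (chromosome 10, 41810574 to 41908436, plus strand, 10 exons) had 4.45, 4.69 and 4.60 CPM in EV. LAP had 4.50, 4.38 and 3.96 CPM, and LIP had 3.31, 2.88 and 2.84 CPM. Every LIP library was below every EV and every LAP library, which no other member showed against both groups. Fitted log2 fold changes of Sesn1 were -0.61 (SE 0.238) in LIP against EV, -0.11 (SE 0.203) in LAP against EV and -0.49 (SE 0.299) in LIP against LAP. With any 1 library left out, the LIP against EV value stayed between -0.67 and -0.56.

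Sesn3 (chromosome 9, 14276301 to 14326134, plus strand, 10 exons) had 17.2, 12.7 and 16.5 CPM in EV. LAP had 14.0, 13.6 and 12.5 CPM, and LIP had 10.7, 8.45 and 19.0 CPM. The LIP libraries were split, with replicates 1 and 2 below all EV libraries and replicate 3 above them. The log2 fold change in LIP against EV was -0.28 (SE 0.279), and it moved to -0.69 without LIP replicate 3 and to -0.07 without LIP replicate 2. Sesn2, the sestrin that is no member of the list, held 60.4% to 71.8% of the counts of the 3 sestrins in every library. Its log2 fold change in LIP against EV was -0.20 (SE 0.168, edgeR quasi-likelihood test, adjusted p = 0.706 by Benjamini-Hochberg over all 18203 genes tested).

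Tsc1 (chromosome 2, 28640993 to 28691172, plus strand, 23 exons) encodes hamartin, which stabilises TSC2. It had 61.2, 60.9 and 75.7 CPM in EV. LAP had 59.6, 60.9 and 64.0 CPM, and LIP had 62.0, 86.2 and 71.2 CPM. The groups overlapped, and the log2 fold change was 0.15 (SE 0.170) in LIP against EV and -0.11 (SE 0.151) in LAP against EV.

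Tsc2 (chromosome 17, 24595816 to 24632676, minus strand, 41 exons) encodes tuberin, the GTPase-activating subunit that acts on Rheb. Its counts were low, between 60 and 138 per library. It had 3.73, 2.92 and 3.43 CPM in EV. LAP had 3.95, 2.16 and 3.59 CPM, and LIP had 4.04, 4.52 and 3.88 CPM. All LIP libraries were above all EV libraries by a narrow margin, at a log2 fold change of 0.30 (SE 0.245), and LAP overlapped both. Annotated exons of Pkd1 cover 11.1% of the exon bases of Tsc2, and the strand setting of the counting is not given in the sources used here, so reads there cannot be told apart between the genes. The table also lists Vegfa, a gene that fibroblasts use, at 0 in all 9 libraries, so a low listed count need not be a low transcript level, and which reads of Tsc2 were counted was not tested.

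Rheb (chromosome 5, 24802823 to 24842361, minus strand, 8 exons) had 122, 122 and 118 CPM in EV. LAP had 119, 161 and 100.4 CPM, and LIP had 107, 83.8 and 89.1 CPM. EV libraries lay close together and above all LIP libraries, while LAP spread across both sides of EV. For Rheb the log2 fold change was -0.37 (SE 0.152) in LIP against EV, 0.06 (SE 0.174) in LAP against EV and -0.42 (SE 0.224) in LIP against LAP. With any 1 library left out, the first of these lay between -0.47 and -0.30. Of the 50-base stretches of the Rheb transcript, 0.692% also occur in other genes.

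Mtor, the kinase gene itself (chromosome 4, 148448582 to 148557685, plus strand, 58 exons), had 82.6, 69.1 and 90.7 CPM in EV. LAP had 78.9, 61.1 and 84.8 CPM, and LIP had 76.6, 76.9 and 92.1 CPM. The ranges overlapped, and the log2 fold change was 0.02 (SE 0.161) in LIP against EV and -0.12 (SE 0.172) in LAP against EV. Rptor, which brings substrates to the kinase (chromosome 11, 119602905 to 119899591, plus strand, 34 exons), had 84.4, 75.3 and 83.8 CPM in EV. LAP had 84.5, 57.6 and 89.3 CPM, and LIP had 90.7, 75.5 and 90.2 CPM. As in Mtor, the lowest library was LAP replicate 2. The log2 fold change of Rptor was 0.07 (SE 0.150) in LIP against EV and -0.08 (SE 0.179) in LAP against EV.

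Rps6kb1 (chromosome 11, 86498869 to 86544885, minus strand, 15 exons) encodes the p70 S6 kinase, a direct mTORC1 substrate. It had 78.7, 75.5 and 69.7 CPM in EV. LAP had 77.8, 72.2 and 87.9 CPM, and LIP had 83.0, 72.9 and 80.0 CPM. All 3 groups overlapped, with a log2 fold change of 0.08 (SE 0.145) in LIP against EV and 0.08 (SE 0.150) in LAP against EV.

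Over the 10 members, the median log2 fold change was 0.00193 in LIP against EV, -0.09 in LAP against EV and 0.02 in LIP against LAP, beside 0.04, 0.02 and 0.02 over all genes tested. At an adjusted p under 0.05, 1 member, Ddit4l, was called lower in LIP against EV, where 0.330% of all genes were called lower and 0.0659% higher. There 3 members had an unadjusted p under 0.05, beside 11.0% of all genes. The call of Ddit4l was lost under a filter on low counts by filterByExpr, with at least 10 counts required in every library and with robust estimation. These settings called 0.0322%, 0% and 0.159% of all genes in either direction. Under every other alternative 1 member was called, beside 0.122% to 2.57% of all genes. Of these, DESeq2 and the edgeR exact test called 1.76% and 1.65%. In LAP against EV 0 members were called, where 0.0606% of all genes were called in either direction, and 0 members had an unadjusted p under 0.05, beside 3.27% of all genes. DESeq2 and the edgeR exact test also called 0 members, beside 0.143% and 0.182% of all genes. With the replicate number as a block 0 members were called, beside 0.297% of all genes, and 1 member, Ddit4l, had an unadjusted p under 0.05, beside 6.08%. Between LIP and LAP 0 members were called against 1.05% of all genes, with 1 member at an unadjusted p under 0.05, beside 9.28% of all genes, and 0 calls by DESeq2 or the exact test, where DESeq2 called 198 lower and 57 higher of the 18166 genes tested and the exact test 1.33% of them. With the block 1 member, Ddit4l, was called in LIP against LAP, where 6.51% of all genes were. It was also called without LAP replicate 1, without LAP replicate 3 and without LIP replicate 3, where 0.819%, 2.28% and 2.52% of all genes were. In LIP against EV the libraries of Ddit4l, Sesn1 and Rheb were without overlap and lower, 3 members, and those of Tsc2 were higher, 1 member, where 8.83% of all genes were lower without overlap and 6.80% higher. For LIP against LAP 1 member, Sesn1, was lower without overlap, where 6.90% of all genes were, and in LAP against EV 0 members separated in either direction, where 7.57% of all genes did. As the members were picked with these values known, nothing is read from the counts.

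**Figure D2:**
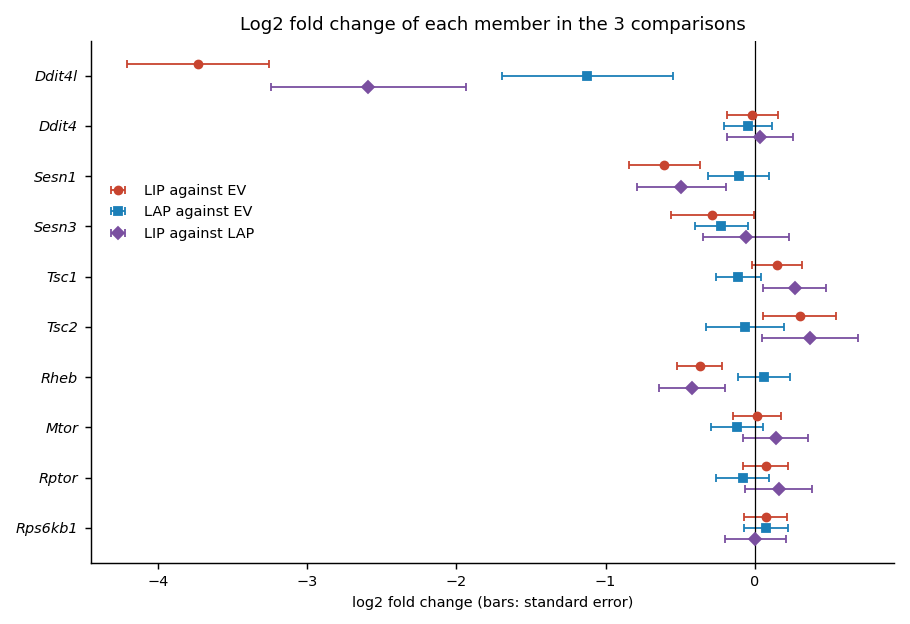
Fitted log2 fold change of each member (points) with its standard error (bars) in LIP against EV, LAP against EV and LIP against LAP, 6 libraries per comparison. Ddit4l stands at -3.73, -1.12 and -2.59, and the values of the other 9 members lie between -0.61 and 0.37.

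Levels were set against each other between genes as CPM per kb of transcript, which depends on the annotated transcript chosen. It also depends on which reads were counted, so that a low place, such as that of Tsc2, need not be a low transcript level. In EV the order was Rheb (67.4), Ddit4 (18.0 to 21.1 over libraries), Rps6kb1 (13.5), Rptor (12.3), Ddit4l (9.82), Mtor (9.44), Tsc1 (8.56), Sesn3 (1.70), Sesn1 (1.20) and Tsc2 (0.536). Rheb and Ddit4 each stood clear of their neighbours, as did Sesn3, Sesn1 and Tsc2. The libraries of Rps6kb1 and Rptor overlapped, as did those of Rptor, Ddit4l, Mtor and Tsc1 along the order. Ddit4l was at place 5 in EV with 9.82 ± 3.32 CPM per kb, at place 7 in LAP with 4.55 ± 3.63 and at place 9 in LIP with 0.740 ± 0.479 (SD, n = 3 each). In LIP it overlapped with both its neighbours, Sesn1 at 0.790 and Tsc2 at 0.662 CPM per kb. The order of the other 9 members was the same in all 3 groups, although neighbours in it overlapped.

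The genes whose log2 CPM followed Ddit4l most closely over the 9 libraries were Chst1, Cdc42ep5, Tspan17, Mvk and Gpr85, with Pearson's r of 0.973, 0.967, 0.966, 0.956 and 0.951, among the 10251 genes whose mean count reached 50. The r is a description over 9 libraries that share the 3 groups, and the 5 genes were picked for it. Cdc42ep5, which encodes an effector of the GTPase Cdc42, had 9.95, 9.59 and 8.82 CPM in EV, 10.1, 11.0 and 5.59 CPM in LAP and 5.92, 6.09 and 4.81 CPM in LIP. Mvk, the mevalonate kinase of sterol synthesis, had 39.0, 38.5 and 33.3 CPM in EV, 35.1, 34.2 and 26.8 CPM in LAP and 29.2, 25.8 and 20.4 CPM in LIP. What these genes had in common with Ddit4l was a low LAP replicate 3 beside 3 low LIP libraries, but over a smaller range, as LIP replicate 3 stood at 32.9% of the EV mean in Chst1, 50.9% in Cdc42ep5, 18.1% in Tspan17, 55.4% in Mvk and 34.5% in Gpr85 against 2.05% in Ddit4l. Among the members, r with Ddit4l was 0.836 for Sesn1 and 0.757 for Rheb, 0.0813 for Ddit4 and 0.133 for Sesn3, and it lay between -0.57 and -0.38 for the remaining 5. With the limit at 20 counts the same 5 genes led, and with scaling by total counts 4 of them did.

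**Figure D3:**
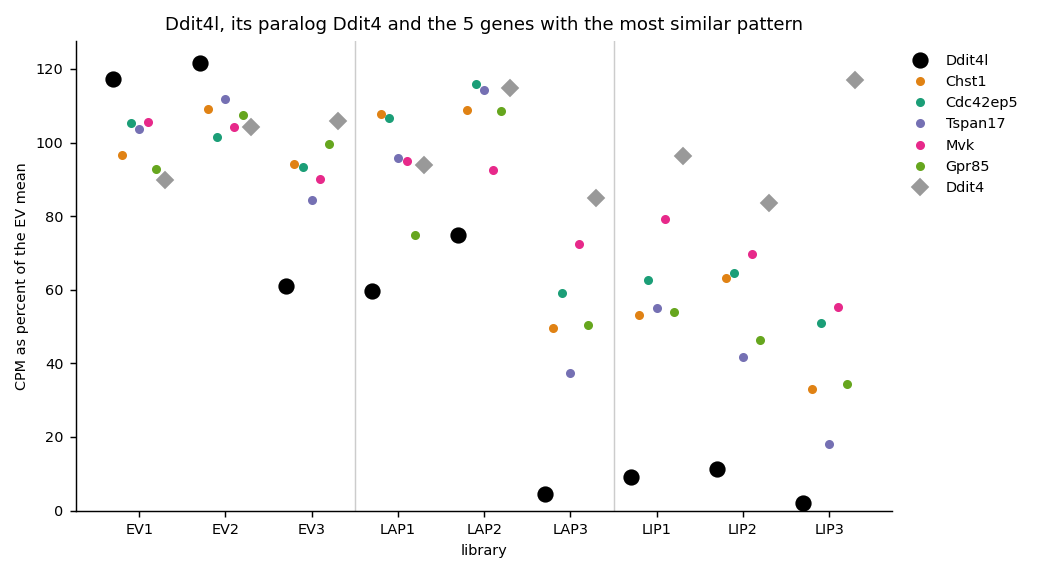
CPM in each of the 9 libraries as percent of the gene's EV mean (n = 3) for Ddit4l (large circles), the 5 genes with the highest r to it (small points) and Ddit4 (diamonds). Ddit4l is at 4.57% in LAP replicate 3 and at 2.05% to 11.4% in LIP, and Ddit4 is between 83.6% and 117% in LIP.

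Other mTORC1 genes were read from a list of 85 genes in 5 roles, of which 84 were tested. In LIP against EV 0 of the 84 passed an adjusted p of 0.05 in the quasi-likelihood test of edgeR, where 0.330% of all genes were called lower and 0.0659% higher. Without adjustment, 9 genes had a p under 0.05, 6 of them lower and 3 higher, 10.7% of the list beside 11.0% of all genes, and the median log2 fold change was 0.06. DESeq2 and the edgeR exact test each called 1 gene, Irs2, higher, with an adjusted p of 0.0145 and 0.0284. These tests called 1.76% and 1.65% of all genes in either direction. In LAP against EV 0 of the 84 were called by the quasi-likelihood test, by DESeq2 or by the exact test, beside 0.0606%, 0.143% and 0.182% of all genes. An unadjusted p under 0.05 was found by the first of these for 1 gene on either side, 2.38% of the list beside 3.27% of all genes. The lower gene was Prkaa2. The higher gene was Lpin1, which was near the floor, at 0 to 1 counts in EV and 3 to 4 in LAP. Between LIP and LAP 1 gene, Irs2, was called higher and 0 lower, where 0.209% of all genes were called higher and 0.837% lower.

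Irs2, on chromosome 8 from 10984681 to 11008929, encodes an adaptor that links the insulin and IGF receptors to PI3 kinase, upstream of Rheb. It had 51.9, 54.9 and 49.2 CPM in EV. LAP had 42.4, 34.8 and 49.5 CPM, and LIP had 72.3, 77.5 and 93.6 CPM. Each LIP library was above all libraries of the other groups. The log2 fold change in LIP against LAP was 0.96 (SE 0.219, edgeR quasi-likelihood test, adjusted p = 0.0406) and, with the replicate block, its adjusted p was 1.92e-05. The call was lost without LAP replicate 1 (adjusted p = 0.103), LAP replicate 2 (0.184), LIP replicate 1 (0.0808) or LIP replicate 2 (0.0733), and under both filters on low counts and robust estimation. Without these libraries 0.819%, 0.0389%, 0.815% and 0.525% of all genes were called, in that order, beside 1.05% in the main fit. The share was 0.0161% with filterByExpr, 0% with 10 counts required in every library and 0.303% with robust estimation. In LIP against EV the log2 fold change was 0.64 (SE 0.155, adjusted p = 0.109), and in LAP against EV it was -0.31 (SE 0.165, adjusted p = 0.918), both from the same test.

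By role, the 9 other subunits and partners of the mTOR complexes had 1 gene at an unadjusted p under 0.05 in LIP against EV, Deptor, which encodes an inhibitory subunit of both complexes. Deptor (chromosome 15, 55112317 to 55259273) had 5.40 ± 0.447 CPM in EV, 4.75 ± 0.835 CPM in LAP and 2.74 ± 0.939 CPM in LIP (SD, n = 3 each). The LIP libraries were below all others, at a log2 fold change against EV of -0.98 (SE 0.293, adjusted p = 0.201). In LIP against LAP its adjusted p was 0.458 without the replicate block, and with it 2 pathway genes were called, Deptor lower and Irs2 higher, beside 6.51% of all genes in either direction. Among 9 genes of the TSC complex, Rheb and amino acid sensing, 1 had an unadjusted p under 0.05, Castor2 (listed as Gatsl2), a gene of the arginine sensor family, with a log2 fold change of -0.47 (SE 0.189, adjusted p = 0.381). The 23 Rag GTPases and their regulators had 2, Rragc and Rragd, and the lower p belonged to Rragd, with a log2 fold change of -1.41 (SE 0.479, adjusted p = 0.285) at 14 to 32 counts in EV and 5 to 9 in LIP. Of the 24 growth factor and energy inputs, Pik3r1 and Prkaa2 had a negative and Irs2, Pik3cd and Prkab2 a positive value at an unadjusted p under 0.05. Pik3cd was close to the floor, at 4 counts in each EV library and 4 to 15 in LIP. Among 19 tested effectors there was no such gene, and the smallest p belonged to Lpin1 (adjusted p = 0.539), which had 0 to 1 counts in EV and 2 to 3 in LIP, at or under the floor, so that no fold is given.

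**Figure D4:**
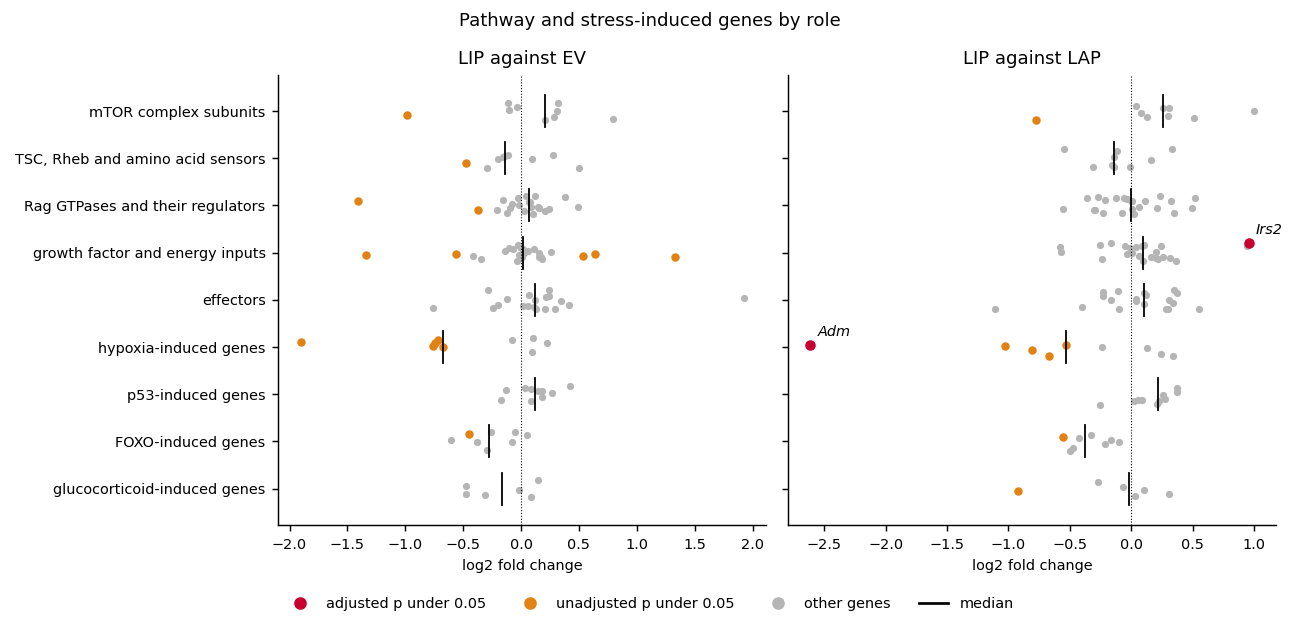
Fitted log2 fold change (horizontal axis) of each tested pathway and stress-induced gene, in rows by role or inducer, in LIP against EV (left) and LIP against LAP (right), with red points for an adjusted and orange points for an unadjusted p under 0.05 by edgeR, grey points for the other genes and bars for row medians. The red points are Irs2 at 0.96 and Adm at -2.61, both on the right, and the far right effector in LIP against EV is Lpin1, at 0 to 3 counts in these libraries.

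Ddit4 and the sestrins are known to be induced by hypoxia, p53, FOXO factors and glucocorticoids, and 34 further genes with these inducers were read beside them, of which 33 were tested. In LIP against EV 0 were called by the quasi-likelihood test, DESeq2 or the exact test, beside 0.396%, 1.76% and 1.65% of all genes. An unadjusted p under 0.05 was found by the first of these for 6 genes with a negative and 0 with a positive value, 18.2% of the list beside 11.0% of all genes. Over all 18203 genes tested, 1228 had such a p with a negative and 770 with a positive value. Of the 6 listed genes, 5 were among the 9 tested hypoxia-induced genes, Adm, Ndrg1, Bnip3, Pdk1 and P4ha1, and the 9 had a median log2 fold change of -0.68 beside 0.04 over all genes. Ndrg1 had the smallest p of the 5, with a log2 fold change of -0.68 (SE 0.181, adjusted p = 0.151). In LAP against EV the quasi-likelihood test, DESeq2 and the exact test called 0, beside 0.0606%, 0.143% and 0.182% of all genes. By the first of these 0 had an unadjusted p under 0.05, beside 3.27% of all genes. Between LIP and LAP 1 gene, Adm, was called lower, and 7 genes, all with negative values, had an unadjusted p under 0.05, 21.2% of the list beside 9.28% of all genes. With the replicate block 5 were called lower, Pdk1, Bnip3, Adm, P4ha1 and Tsc22d3, beside 4.79% of all genes called lower with it and 0.837% without. In LIP against EV 6 of the 9 hypoxia-induced genes had negative values, among them Ankrd37 at only -0.07, where 46% of all genes were negative. Ddit4, itself such a gene, had a log2 fold change of -0.01.

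Adm, on chromosome 7 from 110627657 to 110629820, encodes the vasodilator peptide adrenomedullin. It had 36.0, 20.1 and 14.0 CPM in EV. LAP had 62.5, 40.1 and 13.8 CPM, and LIP had 14.7, 3.18 and 0.969 CPM. Replicate 3 was the lowest library in each group, as for Ddit4l, and LIP replicate 1 lay within the ranges of EV and LAP. The log2 fold change in LIP against LAP was -2.61 (SE 0.626, edgeR quasi-likelihood test, adjusted p = 0.0488). The call was lost with DESeq2 (adjusted p = 0.337), the exact test (0.0791) and scaling by total counts (0.0785), and without LAP replicate 2 (0.271) or LIP replicate 2 (0.153). In LIP against EV the log2 fold change was -1.91 (SE 0.677, adjusted p = 0.310). Without LIP replicate 1 Adm was called there (adjusted p = 0.0205), beside 1.56% of all genes.

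Among the other inducers, none of the 10 p53-induced genes had an unadjusted p under 0.05 in LIP against EV, and their median log2 fold change was 0.12. Ccng1, a cyclin gene induced by p53, had the smallest p of them, with a log2 fold change of 0.42 (SE 0.249, adjusted p = 0.594). The 8 FOXO-induced genes had 7 negative values, where 46% of all genes were negative, and a median of -0.28. Of the 8, 1 gene had an unadjusted p under 0.05, Cited2, a transcriptional coregulator (log2 fold change -0.45, SE 0.194, adjusted p = 0.430). The 6 glucocorticoid-induced genes had a median of -0.16 and 0 genes at an unadjusted p under 0.05, and Dusp1, a phosphatase gene that restrains MAP kinases, came nearest, with a log2 fold change of -0.48 (SE 0.285, adjusted p = 0.599).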

How the data were processed

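Raw counts per gene symbol were deposited by the authors, who, per the labels and methods, sequenced 50-base single reads from TruSeq v2 libraries of total RNA, aligned them with TopHat 1.4.1 and counted them with HTSeq 0.5.4 on mm10 with RefSeq genes. The strand setting and the handling of reads with several alignments are not given in the sources used here. Groups came from the labels, with 3 libraries each.

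Each pair of groups was compared on its 6 libraries over all genes with at least 1 count, with TMM scaling and edgeR 4.0.16 (R 4.3.3) in its quasi-likelihood mode, with a threshold of 0.05 on p-values adjusted by Benjamini-Hochberg. Standard errors were obtained by dividing log2 fold changes by the root of F. The members, gene lists and tests were chosen with earlier results of these data known. Named were the members, every listed gene past the threshold, otherwise the gene of smallest p in LIP against EV per role, and the 5 genes most like Ddit4l.

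Replicate numbers 1 to 3 come from the labels. Deviations of same-numbered libraries from their group means had an r of 0.524, 0.210 and 0.511 in LAP and EV. They had an r of 0.558, 0.413 and 0.466 in LIP and LAP, and of 0.290, -0.121 and 0.231 in LIP and EV. Libraries of different numbers had an r between -0.448 and 0.003 in LAP and EV. It lay between -0.319 and -0.145 in LIP and LAP, and between -0.382 and 0.207 in LIP and EV. Deviations within a group sum to 0, so that these values depend on those of the same number. The labels do not say what libraries of the same number share. The main fits of every comparison therefore used no pairing, and the replicate block was run beside them as an alternative. Alternatives tried were the edgeR exact test, DESeq2 1.42.0, its size factors in edgeR, total counts, 10 counts required in every library, filterByExpr, 1 model of all 9 libraries, robust estimation, the replicate block and each library left out. Gene positions and promoters are from RefSeq (GRCm38.p6), and figures from matplotlib 3.10.9. Strands, exon counts and transcript lengths of the members, exon overlap and shared stretches are from GENCODE vM21. For each member its longest transcript with a RefSeq mRNA identifier was used. Protein sequences were not used here.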

Additional observations from a re-analysis of the deposited data

How the results depend on the processing

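The counts of called pathway and stress-induced genes in LAP against EV were 0 under every alternative run. In LIP against EV the pathway count rose from 0 to 1 with DESeq2 and with the edgeR exact test, and the stress count rose from 0 to 3 with the replicate block (Bnip3, Adm and Ndrg1) and lay between 0 and 1 with a library left out. In LIP against LAP the pathway count of 1 became 0 with filterByExpr, with at least 10 counts in every library and with robust estimation, 2 with the replicate block, and 0 to 1 with a library left out. The stress count of 1 became 0 with DESeq2, the exact test, total counts, 10 counts required in every library, filterByExpr, 1 model of all 9 libraries and robust estimation, 5 with the replicate block, and 0 to 2 with a library left out. The causes were not tested. Over all genes, calls in LIP against EV went from 60 lower and 12 higher to 248 and 73 with DESeq2, 402 and 65 with the replicate block, 3 and 1 with filterByExpr and 0 and 0 with at least 10 counts in every library. Calls in LIP against LAP went from 152 lower and 38 higher to 871 and 312 with the block and to 6 and 1 without LAP replicate 2. They went to 1 and 1 with filterByExpr and to 0 and 0 with at least 10 counts in every library. The log2 fold change of Ddit4l in LIP against EV lay between -3.90 and -3.67 over the alternatives, with -3.90 under the replicate block, which changed no call of a member there. Counting depth limits the precision of the members with few counts, Ddit4l in LIP at 17 to 93, Tsc2 at 60 to 138 and Sesn1 in LIP at 81 to 88 per library.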
